A study of Mus musculus with 2 samples.

Results

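The 9 genes described here encode enzymes of amino acid and inositol metabolism that the proximal tubule of the kidney is known to use, measured in embryonic mouse kidney: Ass1, Asl, Arg2, Gatm, Hpd, Hgd, Fah, Miox and Glyat. The members were listed by name and matched through Ensembl identifiers, and all 9 were found among the 43346 mouse genes of both deposited gene tables. The study measured total RNA of whole kidney at embryonic day 16.5 (E16.5) in mice of strain B6NCrl, with no treatment and no second condition. Its single group held 2 biological replicates, each a pool of male and female embryos. Replicate 2 came from 41 embryos, and the sources used here do not give the number of embryos behind replicate 1. Nothing in the labels ties either pool to particular litters, so the spread between the libraries may be technical as well as biological.

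The proximal tubule is the segment that reabsorbs most filtered amino acids, and several of its enzymes also serve the rest of the body. Citrulline released by the gut is converted there to arginine by Ass1 and Asl, and Gatm uses arginine and glycine to make guanidinoacetate, which the liver methylates to creatine. Hpd, Hgd and Fah are steps of tyrosine breakdown, Miox opens the ring of myo-inositol, and Glyat joins glycine to acyl groups. Miox is the one member that acts outside amino acid metabolism. Many of these enzymes are also abundant in adult liver.

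The libraries held 37900132 estimated counts on mouse genes in replicate 2 and 34261328 in replicate 1. At that depth, 10 counts on a transcript of 2 kb corresponded to 0.201 TPM in replicate 2 and 0.218 TPM in replicate 1. TPM is a level scaled for gene length and library, so that genes can be compared within a library. Spike-in RNAs took 2.08% of the counts of replicate 2 and 2.82% of those of replicate 1. The tissue was whole kidney, so a lower level can come from fewer cells of a type or from less RNA per cell, and these cannot be told apart.

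The annotation placed the members on 7 chromosomes (GRCm38, GENCODE M21, the same assembly as mm10). Ass1 (ENSMUSG00000076441.5) lies at chr2:31470207-31520672 on the plus strand and Gatm (ENSMUSG00000027199.10) at chr2:122594467-122611303 on the minus strand. Asl (ENSMUSG00000025533.11) lies at chr5:130011258-130029247 and Hpd (ENSMUSG00000029445.9) at chr5:123171807-123182727, both on the minus strand. Arg2 (ENSMUSG00000021125.6) lies at chr12:79130777-79156301, Miox (ENSMUSG00000022613.4) at chr15:89334398-89337015, Hgd (ENSMUSG00000022821.9) at chr16:37580153-37632020 and Glyat (ENSMUSG00000063683.8) at chr19:12633308-12653911, all on the plus strand. Fah (ENSMUSG00000030630.11) lies at chr7:84585159-84606722 on the minus strand.

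Of the 9 members, 8 were detected, defined as at least 1 TPM in both libraries, and Hpd was not. By the same definition 62.2% of the 21474 mouse protein-coding genes were detected. The members were chosen with earlier results of these data known, so the difference from that share is a description only. The members' levels spanned from 0.21 TPM for Hpd to 121.92 TPM for Ass1, as means of the 2 libraries. The summed TPM of the members was 365.73 in replicate 2 and 289.45 in replicate 1. Ass1, Gatm and Asl together held 78.0% of that sum in replicate 2 and 77.6% in replicate 1.

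**Figure D1:**
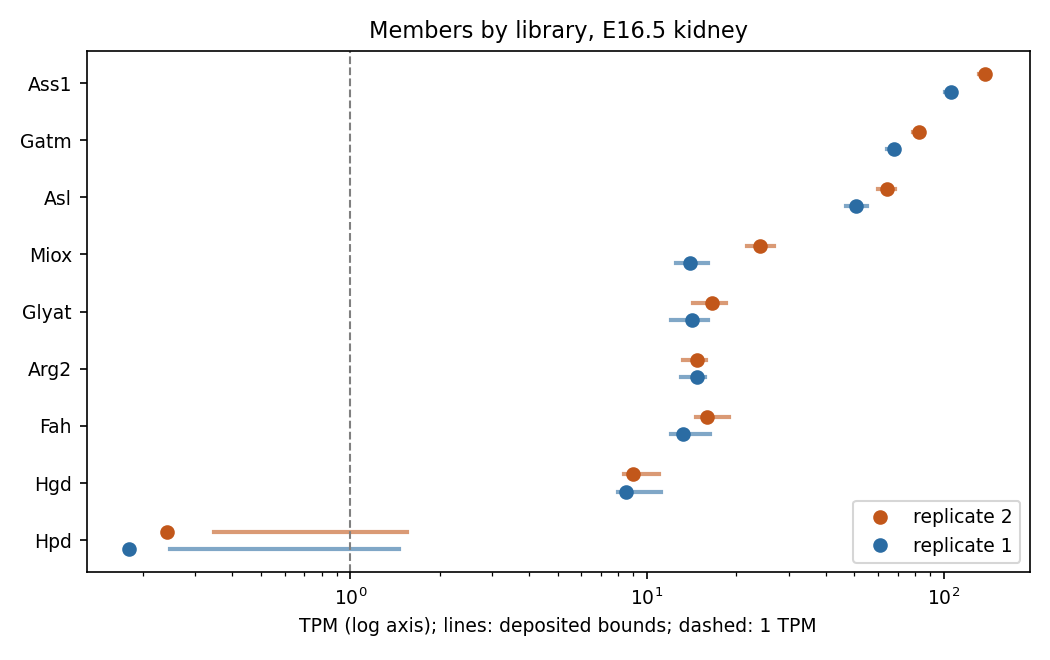
Level of each member in each library, as TPM on a log axis; points are the deposited values, horizontal lines run between the deposited lower and upper TPM bounds, and the dashed line marks 1 TPM. Ass1, Gatm and Asl lie above 50 TPM in both libraries, Miox, Glyat, Arg2, Fah and Hgd between 8.49 and 24.04 TPM, and Hpd below 1 TPM, with both Hpd points below their own bounds.

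Ass1, argininosuccinate synthetase, joins citrulline and aspartate and was the highest member. Its level was 137.89 TPM in replicate 2 and 105.95 TPM in replicate 1, a mean of 122 ± 22.6 TPM (SD, n = 2). That mean exceeded those of 93.8% of mouse protein-coding genes. Asl, argininosuccinate lyase, splits the product of Ass1 into arginine and fumarate, and stood at 64.48 TPM in replicate 2 and 50.68 TPM in replicate 1 (mean 57.6 ± 9.76, SD, n = 2). Both arginine-making enzymes were thus among the well-expressed genes of the tissue, and both had the higher level in replicate 2. The TPM ratio of Ass1 to Asl was 2.14 in replicate 2 and 2.09 in replicate 1.

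Arg2, the mitochondrial arginase that cleaves arginine to ornithine and urea, had nearly the same level in both pools. It was measured at 14.79 TPM in replicate 2 and 14.71 TPM in replicate 1 (mean 14.75 ± 0.0566, SD, n = 2). Its cytosolic counterpart Arg1, the arginase of the hepatic urea cycle, stood at 2.13 TPM in replicate 2 and 1.52 TPM in replicate 1, so that Arg2 exceeded Arg1 by 6.94-fold in replicate 2 and 9.68-fold in replicate 1. Of the 1428 exon bases of Arg2, 285 are shared with Vti1b, a vesicle fusion gene on the opposite strand that was measured at 89.9 TPM in replicate 2 and 81.34 TPM in replicate 1. A further gene on the opposite strand, Gm48780, shares 116 of those bases. The sources used here do not say whether the libraries keep strand, so the level of Arg2 is uncertain. The estimated counts of Arg2 and of Ass1 were not whole numbers in either library, which means that part of their reads was divided with other entries of the annotation.

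Around these 3 members, 9 of 13 other genes of arginine, urea cycle and nitric oxide metabolism were detected. The highest were Ddah2, a gene of the dimethylarginine hydrolase family, at 315.68 TPM in replicate 2 and 307.13 TPM in replicate 1, and Odc1, ornithine decarboxylase, at 148.42 TPM in replicate 2 and 151.18 TPM in replicate 1. Oat, ornithine aminotransferase, which takes up the ornithine made by arginase, was at 155.81 TPM in replicate 2 and 140.43 TPM in replicate 1. Its TPM exceeded that of Arg2 by 10.5-fold in replicate 2 and 9.55-fold in replicate 1. Ddah1 had 60.51 TPM in replicate 2 and 61.7 TPM in replicate 1.

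The enzymes that precede Ass1 in the liver were at the lower end. Otc, ornithine transcarbamylase, which makes citrulline, had 0.16 TPM in replicate 2 and 0.2 TPM in replicate 1. Cps1, carbamoyl phosphate synthetase, had 0.15 TPM in replicate 2 and 0.12 TPM in replicate 1. Nags, which makes the activator of Cps1, was the lowest of the list, at 0.15 TPM in replicate 2 and 0.08 TPM in replicate 1. The arginine-making steps were thus at 50.68 TPM or above in both libraries, while the mitochondrial entry steps of the cycle were below 1 TPM.

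Gatm, glycine amidinotransferase, catalyses the first step of creatine synthesis and was second among the members in level. It had 82.85 TPM in replicate 2 and 68.1 TPM in replicate 1 (mean 75.5 ± 10.4, SD, n = 2), above 89.2% of protein-coding genes. Gamt, the methyltransferase that completes creatine, had 32.17 TPM in replicate 2 and 31.26 TPM in replicate 1. The TPM of Gatm exceeded that of Gamt by 2.58-fold in replicate 2 and 2.18-fold in replicate 1, so the first enzyme was the more abundant transcript in both.

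Of the 6 other creatine genes, 5 were detected. Ckb, the creatine kinase of brain type, led the list with 154.4 TPM in replicate 2 and 106.22 TPM in replicate 1. The mitochondrial kinase Ckmt1 had 29.03 TPM in replicate 2 and 23.12 TPM in replicate 1, and the creatine transporter Slc6a8 had 5.91 TPM in replicate 2 and 7.11 TPM in replicate 1. Ckm, the creatine kinase of skeletal muscle, had 17.64 TPM in replicate 2 and 11.58 TPM in replicate 1, whereas Ckmt2, the mitochondrial kinase of striated muscle, had 0.32 TPM in replicate 2 and 0.38 TPM in replicate 1.

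The tyrosine enzymes were unequal: the final steps were measured well above the threshold and the entry steps were not. Hpd, 4-hydroxyphenylpyruvate dioxygenase, had 0.24 TPM in replicate 2 and 0.18 TPM in replicate 1. These values rest on 7 estimated counts in replicate 2 and 3 in replicate 1, with exact Poisson 95% intervals of 2.81 to 14.4 in replicate 2 and 0.619 to 8.77 in replicate 1 that cover counting error only. The deposited TPM of Hpd lay below its own deposited bounds, which ran from 0.348 to 1.55 TPM in replicate 2 and from 0.246 to 1.46 TPM in replicate 1, and the deposited posterior mean was 0.91 TPM in replicate 2 and 0.8 TPM in replicate 1. Under each of these estimates Hpd was the lowest member. The span of Hpd overlaps those of Psmd9 and Gm26745, with 0 shared exon bases.

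Hgd, homogentisate dioxygenase, acts on the product of Hpd and had 8.99 TPM in replicate 2 and 8.49 TPM in replicate 1 (mean 8.74 ± 0.354, SD, n = 2). Fah, fumarylacetoacetate hydrolase, the last enzyme of the pathway, had 15.94 TPM in replicate 2 and 13.22 TPM in replicate 1 (mean 14.6 ± 1.92, SD, n = 2). The TPM of Hgd exceeded that of Hpd by 37.5-fold in replicate 2 and 47.2-fold in replicate 1, folds that rest on the few counts of Hpd. Fah exceeded Hgd by 1.77-fold in replicate 2 and 1.56-fold in replicate 1, and the values of the genes did not overlap.

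Of 8 other genes of phenylalanine and tyrosine metabolism, 7 were detected. Tat, tyrosine aminotransferase, which makes the substrate of Hpd, was listed with 0 counts in replicate 2 and in replicate 1, and a count of 0 allows a true count of up to 3 per library (a one-sided limit; the exact two-sided Poisson 95% interval reaches 3.69). Gstz1, the isomerase between Hgd and Fah, had 43.25 TPM in replicate 2 and 41.62 TPM in replicate 1, and exceeded Fah by 2.71-fold in replicate 2 and 3.15-fold in replicate 1. Hpdl, a gene related to Hpd, had 1.72 TPM in replicate 2 and 1.53 TPM in replicate 1. The highest of the list were Qdpr, with 180.73 TPM in replicate 2 and 161.45 TPM in replicate 1, and Pcbd1, with 147.38 TPM in replicate 2 and 145.2 TPM in replicate 1; both recycle the tetrahydrobiopterin cofactor of phenylalanine hydroxylase. Ddc, which decarboxylates aromatic amino acids, had 10.57 TPM in replicate 2 and 10.85 TPM in replicate 1.

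Miox, myo-inositol oxygenase, converts myo-inositol to glucuronate and had the largest ratio between the pools among the 8 detected members. It had 24.04 TPM in replicate 2 and 13.91 TPM in replicate 1 (mean 19.0 ± 7.16, SD, n = 2), on 564 estimated counts in replicate 2 and 308 in replicate 1. Its deposited bounds ran from 21.8 to 26.8 TPM in replicate 2 and from 12.5 to 16.1 TPM in replicate 1 and did not overlap. All 13 other genes of inositol and glucuronate metabolism were detected. Akr1a1, an aldehyde reductase that acts on glucuronate, was the highest, at 795.68 TPM in replicate 2 and 711.55 TPM in replicate 1. Isyna1, which makes inositol phosphate from glucose 6-phosphate, had 167.66 TPM in replicate 2 and 160.85 TPM in replicate 1.

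Impa1, the inositol phosphatase, had 67.09 TPM in replicate 2 and 64.63 TPM in replicate 1, and Sord, sorbitol dehydrogenase, had 52.41 TPM in replicate 2 and 50.97 TPM in replicate 1. Isyna1 and Impa1, which make inositol, were thus measured at a higher level than Miox, which breaks it down: Isyna1 exceeded Miox by 6.97-fold in replicate 2 and 11.6-fold in replicate 1. The lowest genes of the list were Gulo, the last enzyme of ascorbate synthesis in mouse, with 2.46 TPM in replicate 2 and 1.67 TPM in replicate 1, and the inositol transporter Slc2a13, with 1.39 TPM in replicate 2 and 1.54 TPM in replicate 1.

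Glyat, glycine N-acyltransferase, had 16.51 TPM in replicate 2 and 14.21 TPM in replicate 1 (mean 15.4 ± 1.63, SD, n = 2). Of 6 other genes of glycine conjugation, 3 were detected. Keg1, a gene of the Glyat family, had 73.83 TPM in replicate 2 and 71.17 TPM in replicate 1, and exceeded Glyat by 4.47-fold in replicate 2 and 5.01-fold in replicate 1. Acsm2, a medium-chain acyl-CoA synthetase that can supply the acyl-CoA, had 37.47 TPM in replicate 2 and 30.19 TPM in replicate 1, and Acsm1 had 6.25 TPM in replicate 2 and 4.26 TPM in replicate 1. Acsm5 was under the threshold, at 0.85 TPM in replicate 2 and 0.77 TPM in replicate 1, and Glyatl3 was listed at 0 in both libraries.

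**Figure D2:**
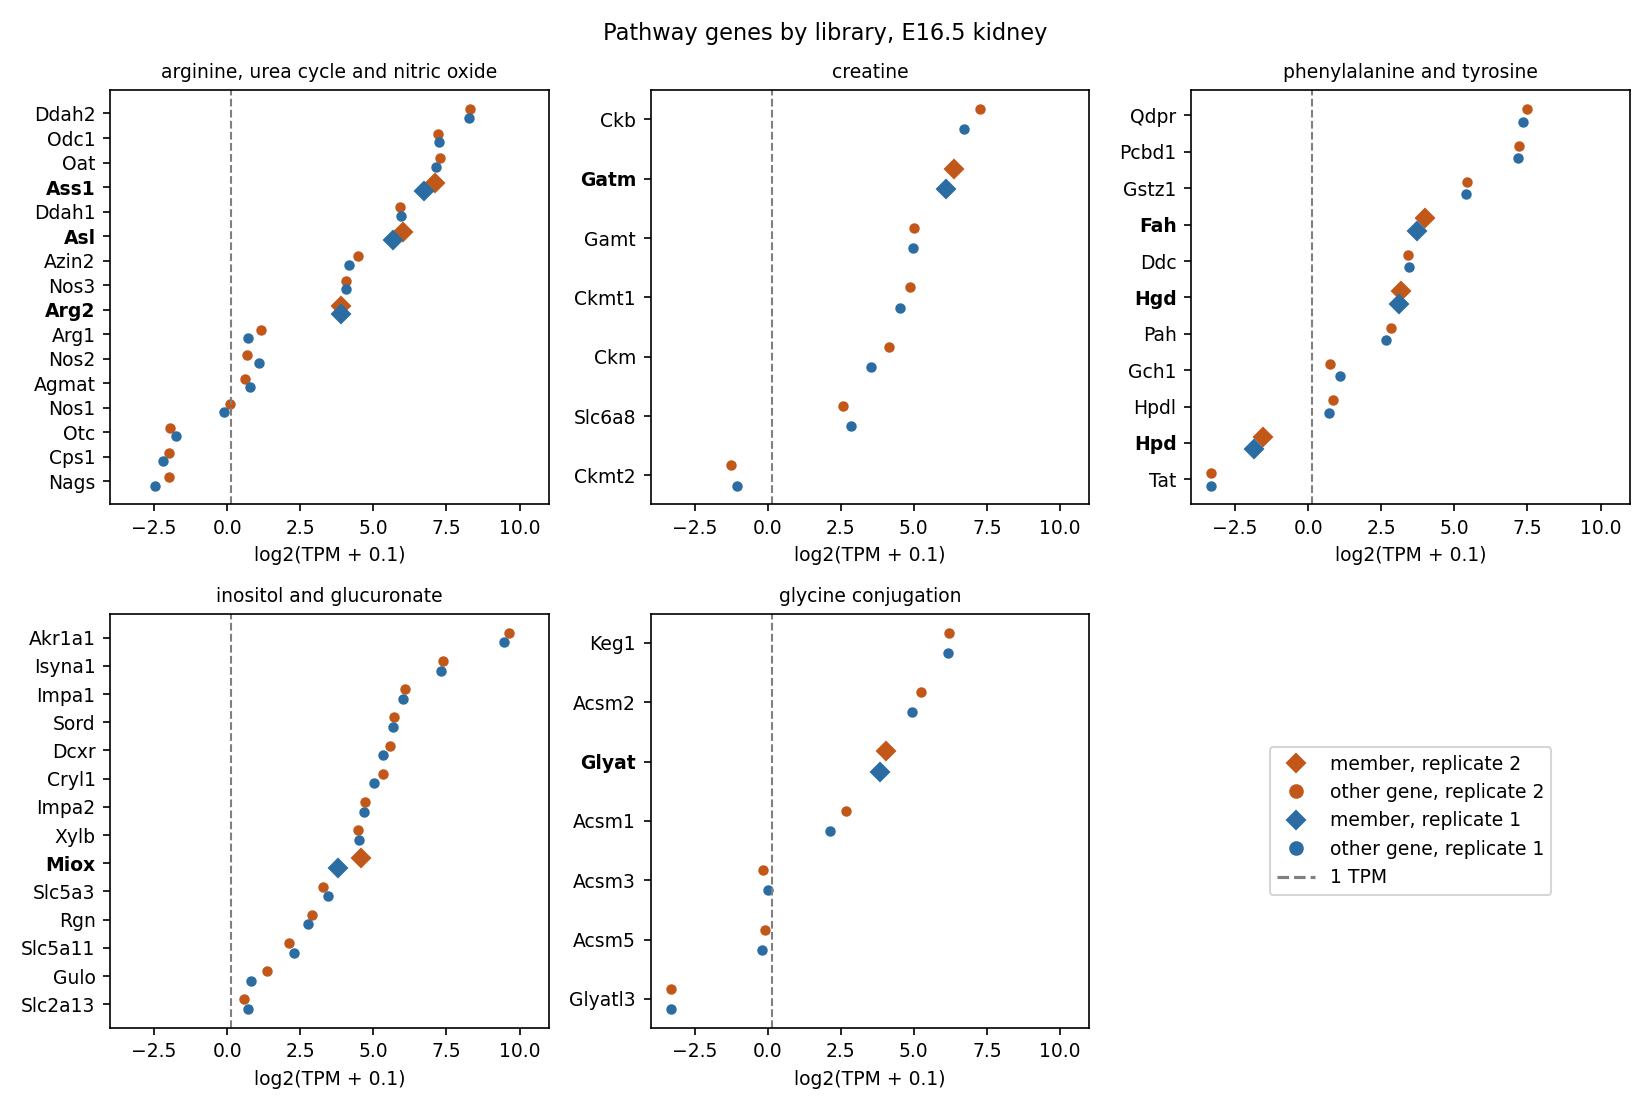
Levels of the members (diamonds, bold names) and of the other genes of their pathways (circles) in each library, as log2(TPM + 0.1); genes run from the highest to the lowest mean TPM in each panel, and the dashed line marks 1 TPM. The urea cycle genes Otc, Cps1 and Nags lie at the bottom of the arginine panel, and Hpd and Tat at the bottom of the tyrosine panel.

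Of 35 genes of other amino acid pathways, 27 were detected. The highest were Phgdh, the first enzyme of serine synthesis, at 491.64 TPM in replicate 2 and 443.04 TPM in replicate 1, and Gcsh, a subunit of the glycine cleavage system, at 170.66 TPM in replicate 2 and 156.62 TPM in replicate 1. Glul, glutamine synthetase, had 146.28 TPM in replicate 2 and 128.39 TPM in replicate 1, and Aldh4a1, an enzyme of proline breakdown, had 124.74 TPM in replicate 2 and 109.18 TPM in replicate 1. The lowest were Tdo2, the tryptophan dioxygenase of liver, at 0.06 TPM in replicate 2 and 0.16 TPM in replicate 1, and Hal, histidine ammonia-lyase, at 0.2 TPM in replicate 2 and 0 in replicate 1. In all 6 pathway lists together, 64 of 81 genes were detected, or 79.0%, beside 62.2% of mouse protein-coding genes. The lists were chosen with earlier results of these data known, so these shares are a description only. The share ran from 50% for glycine conjugation to 100% for inositol and glucuronate, and was 69.2% for the arginine list.

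Ordered by mean TPM, the members ran Ass1, Gatm, Asl, Miox, Glyat, Arg2, Fah, Hgd and Hpd. Neighbours were called separated where neither their values nor their deposited bounds overlapped over the 2 libraries. Ass1 was separated from Gatm, Asl from Miox, Fah from Hgd and Hgd from Hpd. Gatm and Asl did not overlap in their values but did in their bounds. Miox, Glyat, Arg2 and Fah overlapped with their neighbours, so their order among themselves is not fixed by these data.

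The difference between the pools was measured as the log2 ratio of replicate 2 over replicate 1, from counts scaled with edgeR's TMM method, for genes whose mean was 1 CPM (counts scaled to library size) or more. With 1 library on each side there is no test, and a ratio is read against the spread of the same ratio over all 15363 genes above that filter. Their median was 0.01, their quartiles were -0.12 and 0.11, and their SD was 0.39. All 8 members above the filter had a ratio above 0, with a median of 0.29, and Hpd was under the filter. Over all genes above the filter, 8062 had a ratio above 0.

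One member, Miox, was past 1.5-fold, against 5.81% of all genes above the filter. It was higher in replicate 2, where 2.06% of those genes were past 1.5-fold, and 3.76% were past it in the other direction. Among protein-coding genes alone, 455 of 13902 above the filter were past 1.5-fold, 292 higher in replicate 2 and 163 lower. The log2 ratio of Miox was 0.75, a fold of 1.68. Ass1 had a log2 ratio of 0.38, Asl of 0.37, Gatm of 0.30, Fah of 0.27 and Glyat of 0.18, all above the upper quartile of all genes. Hgd, at 0.05, and Arg2, at 0.01, lay within the quartiles. The deposited bounds of replicate 2 and replicate 1 did not overlap for Ass1, Gatm, Asl and Miox.

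**Figure D3:**
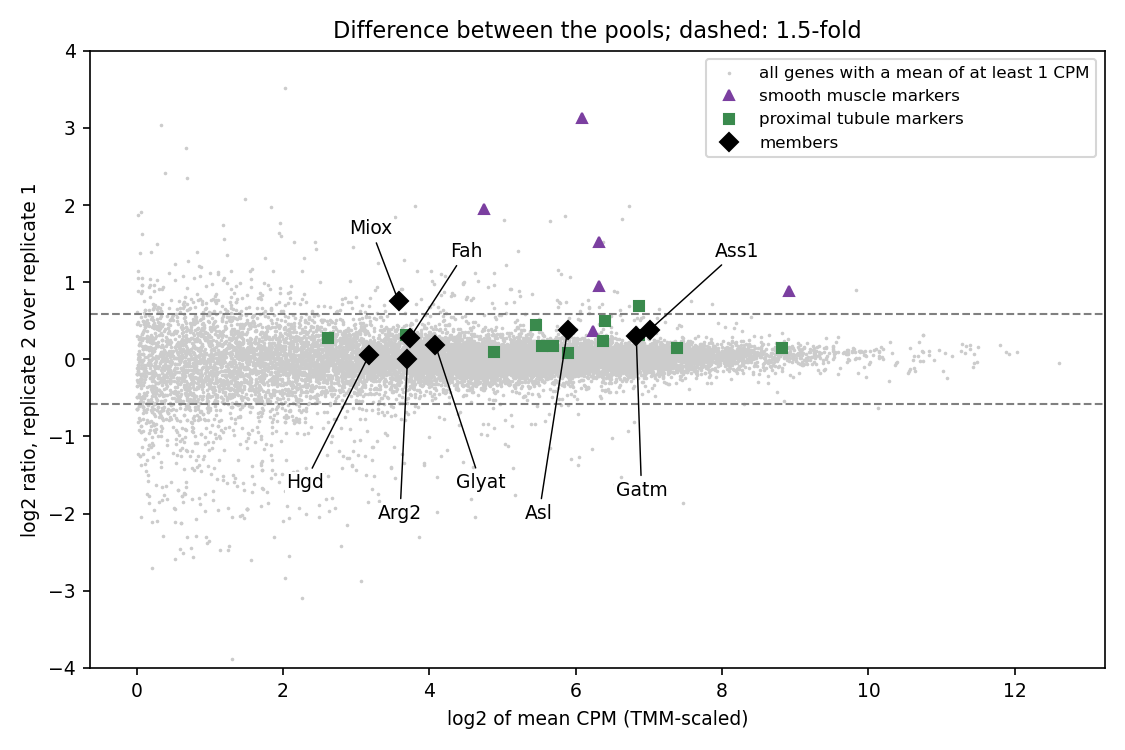
Log2 ratio of replicate 2 over replicate 1 against the log2 of the mean TMM-scaled CPM, for all genes with a mean of 1 CPM or more (grey), members (black), proximal tubule markers (green) and smooth muscle markers (purple); dashed lines mark 1.5-fold, and 14 genes beyond 4 on the vertical axis are not drawn. Miox is the one member above the upper dashed line, and 5 of 6 smooth muscle markers lie above it.

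In the pathway lists, 2 of 67 genes above the filter were past 1.5-fold, Ckm with a fold of 1.52 and Acmsd, an enzyme of tryptophan breakdown, with a fold of 1.55. Both were higher in replicate 2. By the same rule, 455 of 13902 protein-coding genes were past 1.5-fold. Acmsd had 2.72 TPM in replicate 2 and 1.6 TPM in replicate 1. Of the 67, 51 had a ratio above 0, with a median log2 ratio of 0.11. The medians of the lists were 0.07 for arginine, 0.29 for creatine, 0.06 for phenylalanine and tyrosine, 0.14 for inositol, 0.16 for glycine conjugation and 0.12 for the other amino acids.

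Markers of the proximal tubule also had a higher summed level in replicate 2, and whole-kidney RNA does not show which cells held the members' transcripts. All 14 were detected, among them Slc34a1, the phosphate transporter of the segment, at 239.95 TPM in replicate 2 and 217.51 TPM in replicate 1, and Fbp1, a gluconeogenic enzyme, at 177.39 TPM in replicate 2 and 108.2 TPM in replicate 1. Kap, an androgen-regulated kidney gene, was the lowest, at 3.78 TPM in replicate 2 and 1.63 TPM in replicate 1. The markers summed to 740.87 TPM in replicate 2 and 591.48 TPM in replicate 1, a ratio of 1.25, against 1.26 for the members. Fbp1 alone made up 69.2 TPM of the 149 TPM between these sums. Without Fbp1 the markers summed to 563.48 TPM in replicate 2 and 483.28 TPM in replicate 1, a ratio of 1.17, and without Ass1, which added most to theirs, the members had a ratio of 1.24. All 13 above the filter had a ratio above 0, with a median log2 ratio of 0.24, and 1 of them, Fbp1, was past 1.5-fold. By the same rule, 5.81% of all genes above the filter were past 1.5-fold.

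Markers of other cell types differed between the pools as well. Their counts past 1.5-fold stand beside 5.81% of all genes above the filter. Smooth muscle markers, all 6 detected, summed to 923.84 TPM in replicate 2 and 428.15 TPM in replicate 1, with 5 of 6 past 1.5-fold. Acta2 had 563.59 TPM in replicate 2 and 304.85 TPM in replicate 1, Actg2 had 152.98 TPM in replicate 2 and 17.38 TPM in replicate 1, and Cnn1 had 28.42 TPM in replicate 2 and 7.33 TPM in replicate 1. Adrenal cortex markers, 7 of 8 detected, summed to 157.95 TPM in replicate 2 and 102.95 TPM in replicate 1, with 5 of 8 past 1.5-fold. Among them Cyp21a1 had 35.39 TPM in replicate 2 and 31.46 TPM in replicate 1, Cyp11a1 38.46 TPM in replicate 2 and 20.56 TPM in replicate 1, and Cyp11b2 1.6 TPM in replicate 2 and 0.41 TPM in replicate 1. Of the 8 markers, 7 had a log2 ratio above 0. The exception, Mc2r, named here after its values were seen, had 2.28 TPM in replicate 2 and 3.3 TPM in replicate 1.

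Hepatocyte markers are given because adult liver expresses many of these enzymes. All 10 were detected, with a sum of 219.89 TPM in replicate 2 and 175.91 TPM in replicate 1, a ratio of 1.25. All 10 had a log2 ratio above 0, with a median of 0.42. The median was 0.24 for the proximal tubule markers and 0.29 for the members. Afp had 114.05 TPM in replicate 2 and 96.71 TPM in replicate 1, Apoa2 26.93 TPM in replicate 2 and 18.33 TPM in replicate 1, and Apoh, the lowest, 2.02 TPM in replicate 2 and 1.55 TPM in replicate 1; 1 of 10 was past 1.5-fold and none was at 0. Over all genes above the filter, 5.81% were past 1.5-fold. The liver enzymes Cps1, Otc, Hpd and Tat were below 1 TPM in both libraries. The part of proximal tubule, smooth muscle, adrenal or liver RNA in the members' ratios was not tested.

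Markers of endothelium, macrophages and red cells were nearer to equal in their summed levels. Endothelial markers summed to 667.76 TPM in replicate 2 and 648.79 TPM in replicate 1, led by Egfl7 and Plvap, with Cdh5 the lowest. Macrophage markers summed to 155.07 TPM in replicate 2 and 148.2 TPM in replicate 1, led by C1qb and Fcer1g, with Adgre1 the lowest. The log2 ratios of single macrophage markers ran from -0.28 to 0.45, with a median of 0.15 and 5 of 8 above 0. Erythroid markers had a median log2 ratio of -0.06, led by Hba-a2 and Hbb-bs, with Klf1 the lowest. All 24 were detected and none was past 1.5-fold, beside 5.81% of all genes above the filter.

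The deposited transcript tables divide each gene's TPM among its annotated transcripts. For 8 of 9 members the same transcript led in both libraries, and Hpd, with its 7 and 3 counts, was the exception. A single protein-coding transcript carried Ass1 (Ass1-201, 99.9% in replicate 2 and 99.8% in replicate 1, 412 residues), Gatm (Gatm-201, 99.4% in replicate 2 and 97.6% in replicate 1, 423 residues), Arg2 (354 residues) and Fah (419 residues), the last 2 with 100% in both libraries. Asl was divided mainly between Asl-205, with 56.25% in replicate 2 and 49.31% in replicate 1, and Asl-202, with 26.51% in replicate 2 and 25.52% in replicate 1. Both encode 464 residues. Asl-201, whose coding sequence is annotated as incomplete, held 12.28% in replicate 2 and 13.17% in replicate 1, and a transcript not in M21 held 0 in replicate 2 and 4.18% in replicate 1. Miox-201 held 81.41% of Miox in replicate 2 and 83.13% in replicate 1, and retained-intron transcripts held most of the rest. These differed by library: Miox-202 held 13.26% in replicate 2 and 0 in replicate 1, and Miox-204 held 0 in replicate 2 and 12% in replicate 1. In the deposited posterior means, Miox-202 held 7.04% in replicate 2 and 4.77% in replicate 1. Miox-204 held 6.22% in replicate 2 and 7.95% in replicate 1 by that estimate.

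Among the detected members, Hgd differed most between the libraries in the share of its leading transcript. Hgd-203, which encodes 445 residues, held 70.5% in replicate 2 and 93.05% in replicate 1. Hgd-201, which encodes 404 residues, held 25.16% in replicate 2 and 0.1% in replicate 1, on 79.94 estimated counts in replicate 2 and 0.29 in replicate 1. In the deposited posterior means, the share of Hgd-201 was 21.75% in replicate 2 and 10.44% in replicate 1, so the size of the difference depends on the estimate.

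For Glyat, transcripts without a coding sequence held a large share. Glyat-201, which encodes 296 residues, held 45.76% of the gene's TPM in replicate 2 and 46.19% in replicate 1. Glyat-203, annotated as a processed transcript of 690 nt, held 37.44% in replicate 2 and 30.83% in replicate 1, and the retained-intron transcript Glyat-205 held 14.08% in replicate 2 and 17.93% in replicate 1. Protein-coding transcripts summed to 7.95 TPM in replicate 2 and 7.03 TPM in replicate 1, which was 48.2% of the gene's TPM in replicate 2 and 49.4% in replicate 1. They held 80.4% of its counts in replicate 2 and 80.9% in replicate 1, since TPM divides by length and the non-coding transcripts are shorter. The first exon of Glyat-203 is not in Glyat-201. It spans 192 bases at chr19:12639492-12639683 on the plus strand (GRCm38) and is shown, from GENCODE M21, as the exon of Glyat-203 that the leading coding transcript lacks.
Glyat-203 exon 1: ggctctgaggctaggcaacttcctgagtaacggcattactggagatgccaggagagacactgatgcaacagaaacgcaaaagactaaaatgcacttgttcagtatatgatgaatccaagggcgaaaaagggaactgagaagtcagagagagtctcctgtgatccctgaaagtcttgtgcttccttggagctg

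**Figure D4:**
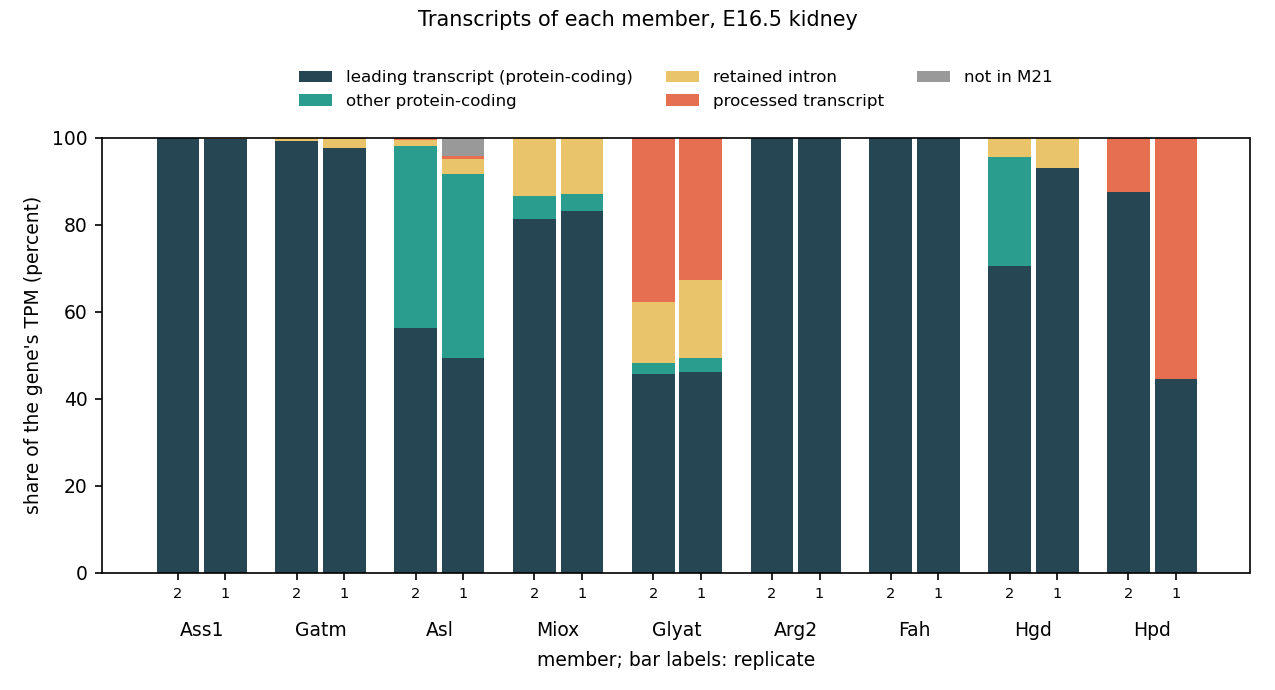
Share of each member's TPM, in percent, held by its leading transcript and by the other classes of transcript, with replicate 2 left of replicate 1 for each member. Glyat has under 50% in protein-coding transcripts in both libraries, the non-leading coding share of Hgd appears in replicate 2, and the shares of Hpd rest on 7 and 3 counts.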

How the data were processed

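Each library has tables of genes and of transcripts, which refer to assembly mm10 and annotation M4 per the deposited notes. The sources used here name no aligner, quantifier or strand setting. Libraries were made from 10 ng of RNA longer than 200 nt, with spike-in RNAs, per the labels. The deposited expected counts are estimated per gene and need not be whole. The TPM that the authors deposited correct for length and add up to 1 fixed total with spike-ins included. The FPKM that the authors deposited correct for length and sequencing depth. The deposited TPM bounds, a signal of at least 0, come with the TPM, and the deposited percent gives each transcript's share of its gene.

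Names, positions and transcript types came from GENCODE M21, matched by identifier for 42462 of 43346 mouse genes. Expected counts were rounded, and edgeR 4.0.16 under R 4.3.3 applied TMM scaling and a prior count of 2 to give replicate 2 over replicate 1 where the mean reached 1 CPM. DESeq2 1.42.0 gave alternative size factors. The ratio step was run on simulated counts as a check of the code, with changes larger than those of the members. That run does not show how well folds of the members' size are measured. A chi-square statistic of the counts over 18119 genes was 13.9 per degree of freedom, so the libraries were treated as distinct. No p-value was computed, since 1 group of 2 libraries allows no test. Named genes were all members, up to 4 of the highest and 2 of the lowest of each pathway list, genes past 1.5-fold, direct partners, and the 2 highest and the lowest of each marker list. Overlapping genes are also named. Members and lists were chosen with earlier results of these data known.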

Additional observations from a re-analysis of the deposited data

How the results depend on the processing

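The count of detected members stayed at 8 under 5 TPM, 1 FPKM, posterior mean TPM and each library alone, and was 9 at 0.1 TPM. Of the members, 1 was past 1.5-fold; the count was 6 with scaling to the spike-in total, 2 with no filter on low counts, where Hpd enters on 7 and 3 counts, and 0 at 2-fold. Of the pathway genes, 2 were past 1.5-fold; the count was 1 with library size scaling, 1 with a mean of at least 5 CPM, 21 with the spike-in total, 6 with no filter and 0 at 2-fold. Scaling to the spike-in total moved the median log2 ratio of all genes to 0.43, with quartiles of 0.31 and 0.53. It moved the members' median to 0.71. The members' ratios, and the counts of 6 and 21, are therefore read relative to that shift. The share of all genes past the fold was computed for the main setting alone, not for the spike-in total or any other setting. The counts of members and pathway genes past the fold under those settings are therefore not read as results about them. With library size scaling, 7 of 8 members had a ratio above 0, the lowest, of Arg2, at -0.02. In the order of levels, 1 neighbouring pair changed places with posterior mean TPM, 1 to 2 pairs with a single library, and 1 with protein-coding transcripts alone, an alternative chosen after seeing the data. With FPKM or counts per kb no pair did. The leading transcript was shared between the libraries for 9 of 9 members by posterior mean percent or by transcript counts. For Hpd these measures named different transcripts, Hpd-202 by posterior mean percent and Hpd-201 by counts. No paired analysis was possible because both libraries belong to 1 group. Few counts limit Hpd, and Tat and Glyatl3 had none. The overlap with Vti1b limits Arg2, and the annotation of non-coding transcripts limits Glyat, whose level was 7.49 TPM in coding transcripts alone and 15.36 TPM in all.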
